A study of Danio rerio with 3 samples.

Results

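Keratins and claudins build the outer barrier of a fish larva, and their transcripts were followed here across 3 libraries of whole zebrafish larvae. A gene was taken when its deposited symbol, case ignored, started with cldn, with krt and a digit, or with krtt1. This gave 49 of 24555 listed genes, of which 17 were keratins and 32 claudins. One gene of the second family, cldnd1a, is described in the files as a claudin domain containing gene and not as a claudin. The rule for members rests on symbols and uses no measured value, although it was set with earlier results of these data known.

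Keratins are intermediate filament proteins. A filament is built from pairs of a type I (acidic) and a type II (basic) chain, and it gives epithelial cells their resistance to stretch. In larval zebrafish the skin has a superficial layer, the periderm, over a layer of basal keratinocytes, and the layers use different keratin genes. Claudins are membrane proteins that span the membrane several times and meet their counterparts on the next cell in tight junctions, where the mixture of claudins sets which ions and solutes pass between cells. Besides skin, they serve gut, kidney, ear, blood vessels and myelin.

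Whole AB larvae were taken at 7 days post fertilization, and each group gave 1 library from 30 pooled larvae. Control larvae were wild type. Knockout larvae had the title serpini1-/-, which their genotype label writes as Tg (serpini1-/-), while the sources used here do not give the kind of mutation. The gene makes neuroserpin, a protease inhibitor of neurons. The transgenic group, titled Tg(serpini1), carried huc:teton:gal4 and tre:serpini1:mkate2, a doxycycline-dependent driver under the huC promoter of neurons and a responder with serpini1 and the red fluorescent protein mKate2. Driver and mKate2 came only together with serpini1, and their effects cannot be told apart. Every group, control included, had doxycycline at 40 µg/mL in the water between day 3 and day 7. With 1 library per group, no value has a replicate check and no test was run.

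Levels are in FPKM, fragments scaled to transcript length and library depth, so they can be compared between genes. The libraries held about 8050000 (control), 8060000 (knockout) and 8290000 (transgenic) fragments, as inferred from the deposited values. The 95% intervals in brackets after a fold value are Clopper-Pearson intervals computed on estimated reads. They hold counting error alone, with each estimated read taken as a separate molecule. Repeat reads of 1 molecule and differences between pools of larvae are not covered. A gene was compared when it had at least 1 FPKM in either library, and it counted as higher or lower past the 2-fold rule when log2 of (FPKM + 1) differed by at least 1. Serpini1 itself stood at 20.04 FPKM in control, 8.05 in the knockout and 288 in the transgenic library. Macrophage and neutrophil markers summed to 124 FPKM in control, 87.9 in the knockout and 495 in the transgenic library, with 17 of 17 markers above control in the transgenic and 17 of 17 below it in the knockout library. Of all genes, 52.5% lay above control in the transgenic and 44.9% in the knockout library. DNA replication and mitosis genes summed to 141, 191 and 292 FPKM. Their part in the results on skin genes was not tested.

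The skin was well represented in every library. Epidermal markers that are neither keratins nor claudins were not at 0 in any of them. The 8 basal keratinocyte markers summed to 178 FPKM in control, 209 in the knockout and 286 in the transgenic library, where the adhesion molecule gene epcam alone gave 177. Epcam, which is also in the adherens junction list below, was the 1 of the 8 past the 2-fold rule there, beside 3.56% of all genes higher past it. The median log2 ratio of the 8 was 0.12, beside 0.03 for all genes. Tp63, the transcription factor that marks basal keratinocytes, stood at 12.1, 12.4 and 15.4 FPKM in control, knockout and transgenic. The 13 periderm markers summed to 493, 504 and 538 FPKM, with 1 of them, the protease gene tmprss13a, past the 2-fold rule in the transgenic library. In whole larvae, fewer cells of a type and less RNA per cell cannot be told apart.

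Keratins were among the most abundant transcripts of the larva. Their 17 genes summed to 10309 FPKM in control, 12008 in the knockout and 8467 in the transgenic library, or 1.61%, 1.85% and 1.31% of all FPKM over genes with a value in each library. Krt91, krt4 and krt5 together made up 64.1% of the keratin sum in control, 64.4% in the knockout and 59.4% in the transgenic library. This sum leaves out cyt1 and cyt1l, type I keratins whose symbols fall outside the rule. In control they stood at 669 and 2697 FPKM. In control, 10 keratins reached 100 FPKM, while krt96, krt222, krt1-c5 and krt93 lay between 3.43 and 7.45 FPKM and krt95 at 0.53. Krt91 was at rank 27 of all genes in control, so the family reached from the most abundant transcripts of the larva to an estimated handful of reads.

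**Figure D1:**
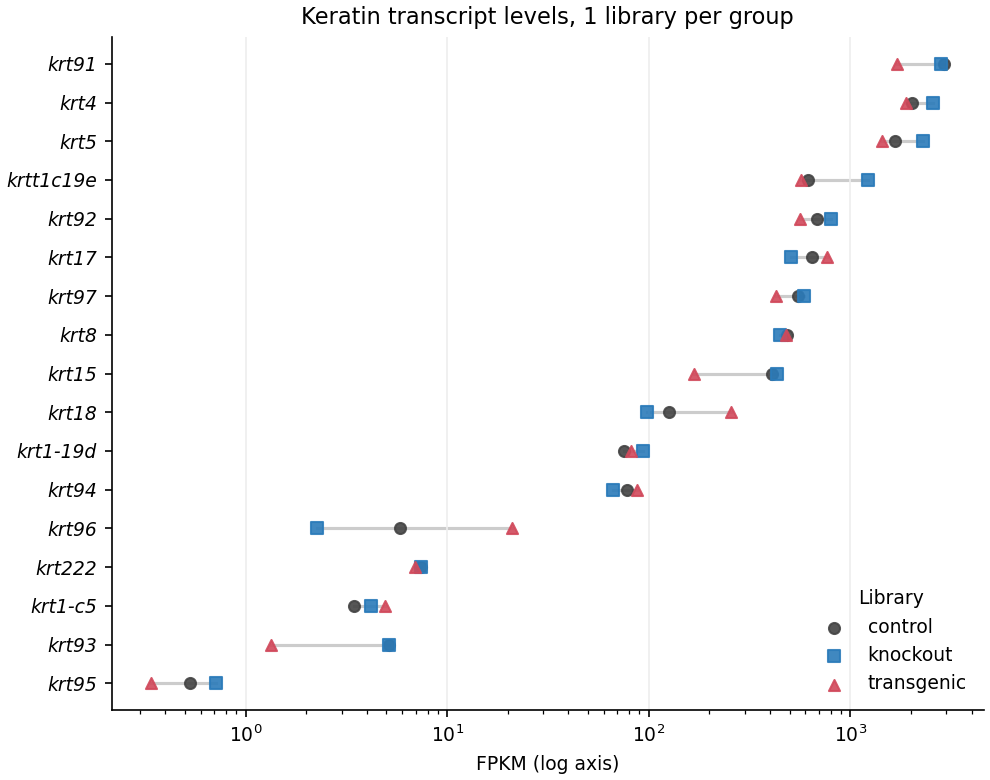
FPKM (log axis) of the 17 keratins in the control (circles), knockout (squares) and transgenic (triangles) library, 1 library per group, ordered by mean level, with a grey line from the lowest to the highest value. The widest spreads are those of krt96 (2.27 to 20.9 FPKM) and krt93 (1.33 to 5.16 FPKM), while krt8 keeps between 448 and 486 FPKM.

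In the transgenic library keratins lay on both sides of control. Krt96 and krt18 were higher and krt93 and krt15 lower past the 2-fold rule, which is 2 higher and 2 lower of 16 compared keratins. Over all 19242 genes compared in the transgenic and control libraries, 4.82% were past the rule, 3.56% on the higher and 1.26% on the lower side. Among abundant genes, those reaching 100 FPKM in 1 of both libraries, 7.36% were past it. Of the 10 abundant keratins, 1 was higher and 1 lower past the rule. The median log2 ratio was -0.10 for keratins and 0.03 for all genes, with 6 keratins above 0 and 10 below. With 2 genes on each side, nothing is read from these counts about the family as a whole.

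Krt15, a type I keratin that in mammals marks basal keratinocytes, stood at 411 FPKM in control, 431 in the knockout and 168 in the transgenic library. The transgenic library alone was low, 2.45-fold under control (interval 2.33 to 2.58), and the knockout level was 1.05-fold that of control. Krt93 stood at 5.16, 5.15 and 1.33 FPKM in the same order. Again the transgenic library alone was low, 3.88-fold under control (2.28 to 7.17), on an estimated 17 reads. Krt91, the member with the highest level in control and knockout but second to krt4 in the transgenic library, stood at 2924 FPKM in control, 2833 in the knockout and 1709.6 in the transgenic library. It was 1.71-fold lower in the transgenic library (1.68 to 1.74), inside the 2-fold rule. The keratin sum was 1841 FPKM lower than in control, and krt91 alone was 1214 FPKM lower.

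Krt18 encodes the type I keratin of simple epithelia and stood at 127 FPKM in control, 97.7 in the knockout and 255 in the transgenic library. It was 2.01-fold higher than control in the transgenic library (1.89 to 2.13), which is only just past the rule, and it lay inside the rule once FPKM was scaled to the median ratio of all genes (log2 ratio 0.97). Krt8, its type II partner in simple epithelia and its neighbour in the genome, stood at 486, 448 and 482 FPKM. The krt8 level was 3.83 times that of krt18 in control, 4.58 times in the knockout and 1.89 times in the transgenic library, so the pair did not keep one ratio. Krt18b, a further krt18 gene listed under another symbol (zgc:77517), stood at 100.3, 97.3 and 109 FPKM.

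Krt96, a type I keratin, was the 1 keratin past the rule against control in both other libraries, and in opposite directions. It stood at 5.81 FPKM in control, 2.27 in the knockout and 20.9 in the transgenic library. It was 2.56-fold lower in the knockout (1.59 to 4.43) and 3.60-fold higher in the transgenic library (2.68 to 4.84). Both ratios share the control value, and the transgenic level was 9.21 times the knockout level, which uses no control value. The knockout level of krt96 rests on an estimated 23 reads. With a pseudocount of 5 FPKM, the log2 ratio of krt96 to control was -0.57 in the knockout, inside the rule, and 1.26 in the transgenic library. Its neighbour krt97, also type I, stood at 548, 589 and 428 FPKM and so did not share this order.

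The other abundant keratins differed by less in the transgenic library. The type II chains krt4, used widely to mark the superficial skin, and krt5 were 1.07-fold (1.06 to 1.09) and 1.16-fold lower (1.14 to 1.18). Krt92 and krt97 were 1.21-fold and 1.28-fold lower, and krt17, which in mammals is induced in wounded skin, was 1.19-fold higher (1.15 to 1.22). Krtt1c19e, whose promoter is used to label basal keratinocytes in zebrafish, was 1.09-fold lower (1.06 to 1.13). The 3 keratins nearest to the rule on its inner side were krt91 at a log2 ratio of -0.77, krt1-c5 at 0.42 and krt97 at -0.36. Krt94, krt1-19d and krt222, a keratin-like gene, had ratios of 0.16, 0.11 and -0.09, and krt95 was under 1 FPKM in each library.

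In the knockout library the pattern was another one. Of 16 compared keratins 1, krt96, was past the rule on the lower side and 0 on the higher side. Over all 18663 genes 1.46% were past it (0.798% higher and 0.664% lower). Of the 10 abundant keratins 0 were past it, beside 1.3% of abundant genes. The median log2 ratio was 0.03 for keratins and -0.03 for all genes. The 3 largest ratios among keratins were those of krtt1c19e, krt5 and krt4. Of 16 keratins 8 lay above control and 8 below, beside 44.9% of all genes above it. Krtt1c19e stood at 620 FPKM in control, 1219 in the knockout and 567 in the transgenic library. The knockout library alone was high, 1.96-fold over control (1.91 to 2.02), with a log2 ratio of 0.97 just inside the rule and of 1.01 after scaling to the median gene.

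Krt5 stood at 1666 FPKM in control, 2307 in the knockout and 1441 in the transgenic library, and krt4 at 2019, 2589.7 and 1882. Both were highest in the knockout, 1.38-fold (1.36 to 1.41) and 1.28-fold (1.27 to 1.30) over control. Krt92 and krt1-19d were 1.18-fold and 1.24-fold higher. Cyt1 and cyt1l are type I keratins of the enveloping layer, the first surface epithelium of the embryo, and their symbols keep them outside the counts. Cyt1 stood at 669, 1106 and 620.1 FPKM and cyt1l at 2697, 4333 and 2387, so both had the same order of libraries as krtt1c19e, krt4 and krt5. In contrast, krt17 was 1.28-fold lower in the knockout (1.23 to 1.32), krt18 1.30-fold and krt94 1.17-fold lower.

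The sums by type give the balance of the chains. The 13 type I members summed to 6131 FPKM in control, 6656 in the knockout and 4655 in the transgenic library. The 3 type II members, krt4, krt5 and krt8, summed to 4170.4, 5344 and 3805 FPKM. Type I transcripts were thus 1.47 times the type II transcripts in control, 1.25 times in the knockout and 1.22 times in the transgenic library. With cyt1 and cyt1l counted in, the ratio was 2.28, 2.26 and 2.01, so the difference between control and knockout rests on which type I genes are counted.

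Keratin genes lie beside each other, and neighbours were used as a feature that the choice of members did not rest on. By the gene order of the RefSeq assembly GRCz12tu, 14 of 17 keratins and 12 of 32 claudins lie in runs of neighbouring genes of their family, 4 runs of keratins and 5 of claudins, with no other protein-coding gene between them. The run of krt1-19d, krtt1c19e, krt92, cyt1l, cyt1, krt17 and krt91 held 8317 FPKM in control. Its members did not share 1 direction. In the knockout library the first 5 were higher than control and the last pair, krt17 and krt91, lower. In the transgenic library krt91 had a log2 ratio of -0.77 and krt17, next to it, of 0.25. In the run of krt93, krt94 and krt15, krt93 and krt15 were lower past the rule in the transgenic library and krt94, which lies between them, had a ratio of 0.16. Tandem copies can share reads, and the sources used here do not say how reads were divided between them, so values of single neighbours are uncertain.

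**Figure D2:**
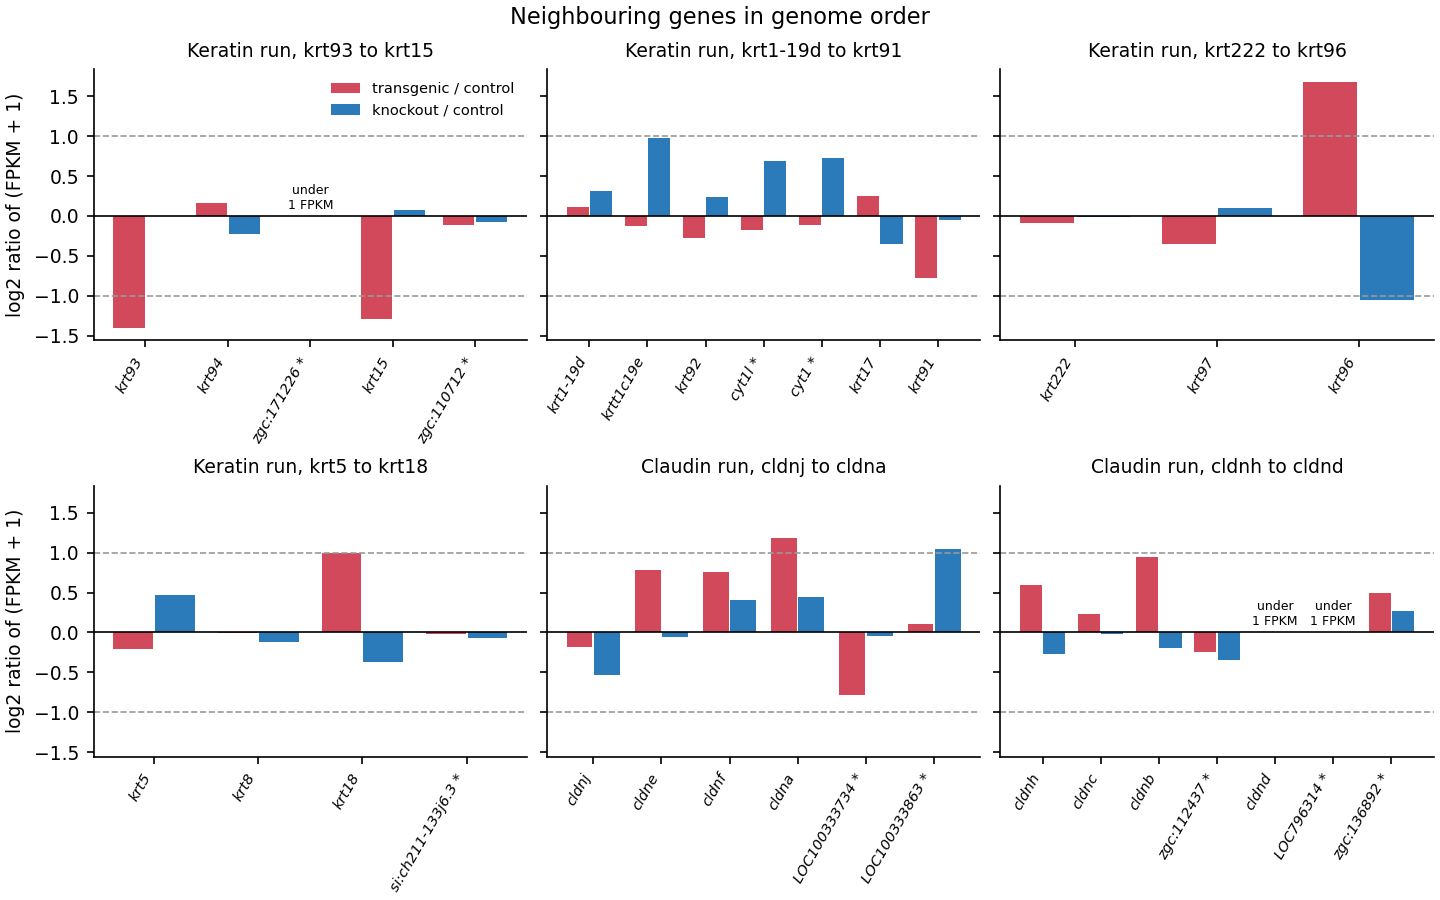
Log2 ratios of (FPKM + 1) to control for runs of neighbouring keratin or claudin genes with at least 3 members, in the gene order of GRCz12tu; red bars are transgenic over control, blue bars knockout over control, dashed lines mark the 2-fold rule, and a star marks a gene listed under another kind of symbol. Neighbours such as krt91 and krt17, or krt8 and krt18, have unlike ratios in the transgenic library. Claudin neighbours also differ: cldne, cldnf, cldna and LOC100333863 (0.10) are above 0 there, while cldnj (-0.18) and LOC100333734 (-0.79) in the same run are below.

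Claudins were present at much lower levels, and in the transgenic library most lay above control without passing the 2-fold rule. Their 32 genes summed to 521 FPKM in control, 516 in the knockout and 816.5 in the transgenic library. The knockout sum leaves out 4 of them that have no knockout value. The claudin sum was 5.06% of the keratin sum in control, 4.29% in the knockout and 9.64% in the transgenic library. These shares would be smaller with cyt1 and cyt1l in the keratin sum. Of 27 compared claudins, 21 lay above control in the transgenic library and 6 below, with 2 past the 2-fold rule on the higher side (cldna and cldn11a) and 0 on the lower, against 3.56% and 1.26% of all genes. The median log2 ratio was 0.49 for claudins and 0.03 for all genes, of which 52.5% lay above 0. A level at least 1.5 times that of control was reached by 14 of 27 claudins and by 17.4% of all genes compared. The transgenic library was the highest of the 3 for 19 of 27. The remaining 5 claudins were under 1 FPKM in the libraries compared. Of 14 compared claudins listed under other symbols, 8 lay above control and 6 below, with a median log2 ratio of 0.16.

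**Figure D3:**
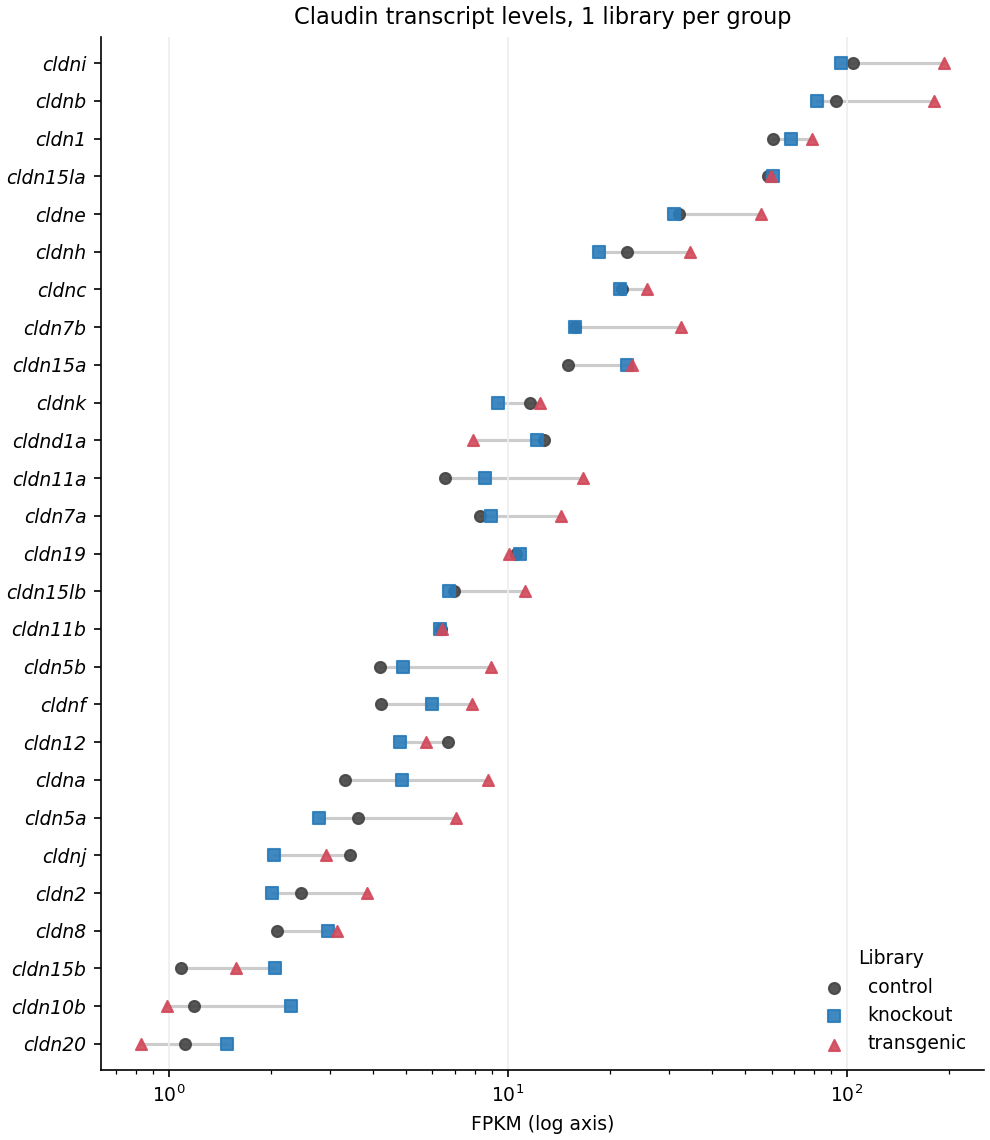
FPKM (log axis) of the 27 claudins with at least 1 FPKM in a library, in the control (circles), knockout (squares) and transgenic (triangles) library, 1 library per group, ordered by mean level. For cldni, cldnb, cldne, cldn7b and cldn7a the circle and square lie together and the triangle to their right, for cldnf and cldna the square lies between the other symbols, and cldn15la, cldn11b and cldn19 have 3 nearly equal values.

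The claudins assigned to epidermis and periderm make up most of the claudin sum. In the transgenic library 8 of 8 lay above control, beside 52.5% of all genes. Of the 8, 7 reached 1.5 times the control level, as 17.4% of all genes did. Past the 2-fold rule was 1 of the 8, cldna, beside 3.56% of all genes on the higher side. Cldn23.1 and cldn23l, assigned to the same group but listed under other symbols, had log2 ratios of 0.81 and -0.33, so not every epidermal claudin was higher. The 8 genes summed to 322 FPKM in control, 312 in the knockout and 572 in the transgenic library. Cldni, an epidermal claudin, stood at 104.5, 96.1 and 193 FPKM in this order of libraries and was 1.85-fold higher in the transgenic library (1.73 to 1.98). Cldnb, which is also made by the migrating lateral line primordium, stood at 93.1, 81.5 and 181 FPKM, 1.94-fold higher (1.78 to 2.12). For both genes the control and knockout libraries lay close together and the transgenic library apart from them.

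Cldna stood at 3.31 FPKM in control, 4.88 in the knockout and 8.76 in the transgenic library, 2.65-fold higher than control in the latter (1.86 to 3.75). Cldn7b stood at 15.8, 15.8 and 32.5 FPKM, 2.06-fold higher (1.76 to 2.42). On the scale with the pseudocount it fell just inside the rule, at a log2 ratio of 0.996, followed by cldnb at 0.95 and cldn5b at 0.93. Cldne, a claudin of the enveloping layer and periderm, stood at 32.1, 31.0 and 55.8 FPKM, 1.74-fold higher (1.55 to 1.95). Its neighbour cldnf and the related cldn7a were 1.85-fold (1.32 to 2.58) and 1.74-fold higher (1.36 to 2.27). Cldn1, a claudin that mouse skin needs to retain water, differed least in this group, at 60.5, 68.3 and 78.8 FPKM, 1.30-fold higher (1.12 to 1.52).

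Cldn5a and cldn5b, claudins of the brain barrier and of blood vessel endothelium, were also higher in the transgenic library. Cldn5a stood at 3.61 FPKM in control, 2.77 in the knockout and 7.06 in the transgenic library, 1.96-fold higher (1.34 to 2.85), and cldn5b at 4.20, 4.93 and 8.91, 2.12-fold higher (1.51 to 2.99). Of the 17 endothelial marker genes, 15 were compared, with 10 above control, 5 below and 0 past the rule. Over all genes, 52.5% lay above control and 4.82% were past the rule. The markers had a median log2 ratio of 0.24 and sums of 121, 105 and 135 FPKM. The receptor gene kdrl, 1 of the 5 below control, stood at 9.50, 8.59 and 7.66 FPKM. On the log2 scale the cldn5a and cldn5b ratios were 0.81 and 0.93. The part of endothelial cells in the levels of both genes was not tested.

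Claudins linked to myelin did not share a pattern. Cldnk, the claudin of zebrafish myelinating glia, stood at 11.6 FPKM in control, 9.34 in the knockout and 12.4 in the transgenic library. Cldn19, which mouse Schwann cells need, stood at 10.6, 10.9 and 10.07, and cldn11b at 6.35, 6.33 and 6.39. None of these lay far from control, although cldnk was 1.33 times as high in the transgenic as in the knockout library (1.06 to 1.69). The 13 myelin markers summed to 192, 190 and 198 FPKM. Cldn11a, whose mammalian counterpart is a myelin and testis claudin, stood apart at 6.53, 8.58 and 16.7 FPKM and was 2.55-fold higher in the transgenic library (1.88 to 3.48), although its paralog cldn11b was 1.01-fold the control level (0.776 to 1.29).

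Gut claudins differed in the size of their ratios. In the transgenic library 5 of 5 compared lay above control, as 52.5% of all genes did, and 0 were past the rule. Their log2 ratios ran from 0.03 to 0.63. Cldn15la, a claudin of the intestinal epithelium and the most abundant of this group, stood at 58.5 FPKM in control, 60.4 in the knockout and 59.8 in the transgenic library, so it did not separate them. Cldn15a, which zebrafish need to form a single gut lumen, stood at 15.0, 22.6 and 23.3 FPKM. Here the control library was the low one, with the knockout 1.5-fold (1.21 to 1.87) and the transgenic library 1.55-fold higher (1.26 to 1.93). Cldn15lb, a claudin of zebrafish bile ducts, stood at 6.93, 6.71 and 11.2 FPKM, 1.62-fold higher in the transgenic library (1.22 to 2.19). Cldnc stood at 21.8, 21.4 and 25.8 FPKM and cldn15b at 1.09, 2.06 and 1.58. The 19 enterocyte markers summed to 2331, 2379 and 2067 FPKM, with a median log2 ratio of 0.00 in the transgenic library. There 2 of the 19 were higher and 0 lower past the rule, beside 3.56% and 1.26% of all genes.

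Among the remaining claudins, cldnh stood at 22.5 FPKM in control, 18.6 in the knockout and 34.6 in the transgenic library, 1.54-fold higher in the latter (1.34 to 1.75). Cldnh, cldn2, cldn8 and cldn10b were assigned to ionocytes or kidney. The 14 pronephric tubule markers summed to 119.8, 126 and 132 FPKM, with 7 above and 7 below control in the transgenic library. The 17 ionocyte markers summed to 255, 227 and 372 FPKM. Of these, 14 lay above control there and 3 below, beside 52.5% of all genes above it. The part of either cell type in the levels of these claudins was not tested. Cldn2, a pore-forming claudin in mammals, stood at 2.46, 2.02 and 3.85 FPKM and cldn8 at 2.09, 2.95 and 3.13. Cldnj, which the ear needs to mineralize otoliths, stood at 3.42, 2.04 and 2.91 FPKM, with a counting interval of its transgenic ratio (0.523 to 1.33) on both sides of equality. The strongest negative ratio of the family was that of cldnd1a, at 12.8, 12.2 and 7.89 FPKM, 1.62-fold lower in the transgenic library. Cldn10b, cldn12 and cldn20 had log2 ratios between -0.21 and -0.14.

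In the knockout library claudins were balanced. Of 27 compared claudins 0 were past the 2-fold rule, against 1.46% of all genes. With 13 above and 14 below control, beside 44.9% of all genes above it, their median log2 ratio was -0.00. The ratios ran from -0.54 (cldnj) to 0.59 (cldn10b), and 3 claudins reached 1.5 times the control level, beside 7.61% of all genes, namely cldn15a, cldn15b and cldn10b, the latter pair near 2 FPKM. The 8 epidermal claudins had 4 members above and 4 below control. Cldn10a, cldng, cldn17 and cldn18 have no knockout value here and were under 1 FPKM in the other libraries.

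**Figure D4:**
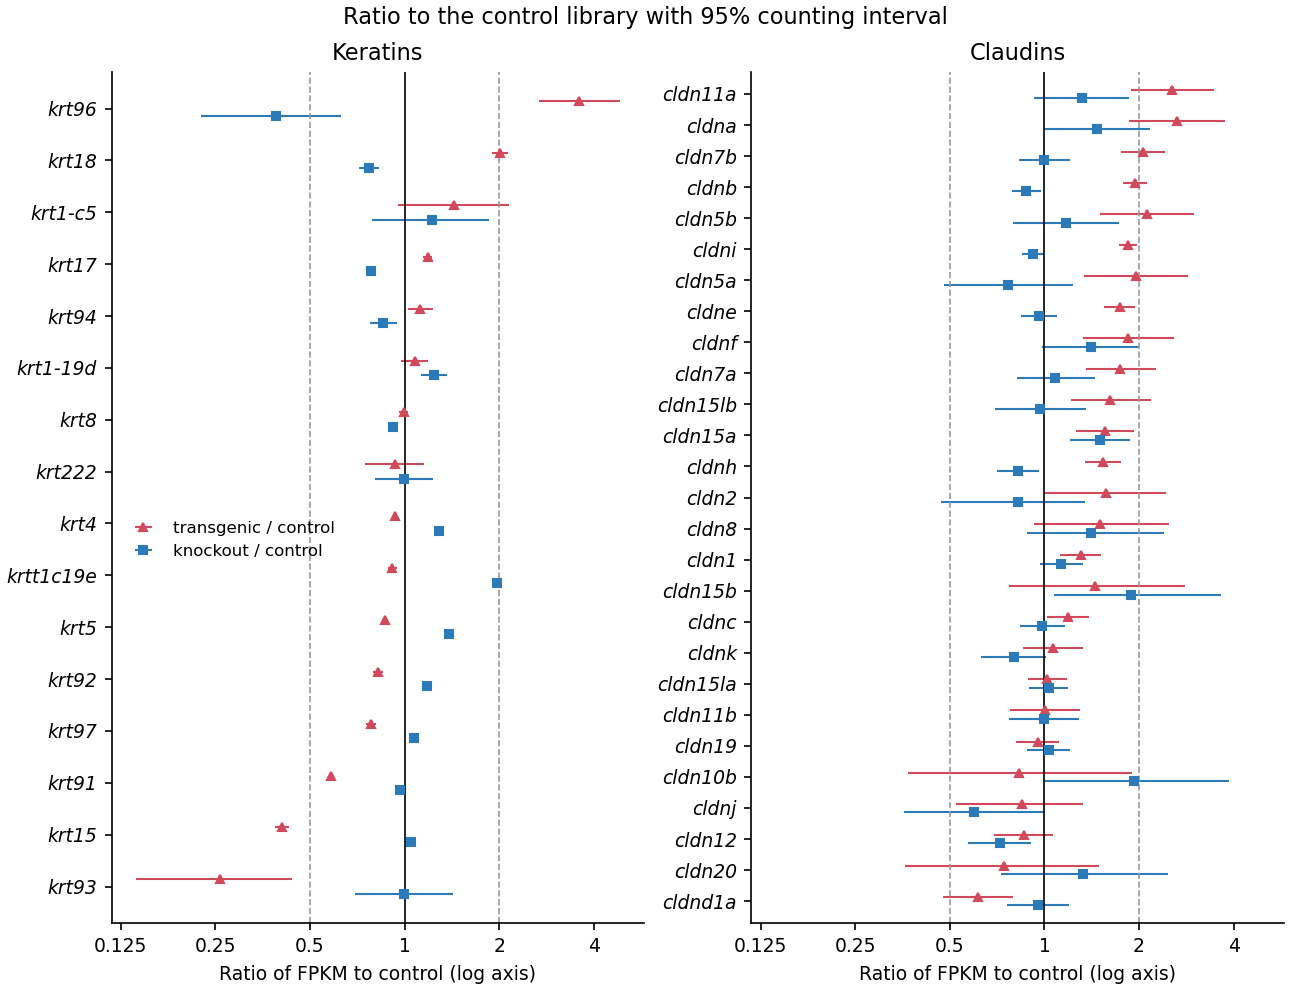
Ratio of FPKM to the control library (log axis) for each compared keratin (left) and claudin (right), transgenic as triangles and knockout as squares, with 95% counting intervals from estimated reads and dashed lines at a 2-fold difference. Keratins spread on both sides of equality from krt93 (0.258) to krt96 (3.60) in the transgenic library, while 21 of 27 claudins lie to the right of 1.

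The transgenic library was also set against the knockout, a ratio free of the control value. Of 16 keratins 2 were higher (krt96 and krt18) and 3 lower (krt15, krt93 and krtt1c19e) past the rule. Over all genes 3.94% were past it, 2.86% higher and 1.08% lower. Of the 10 abundant keratins, 1 was higher and 2 lower past it, beside 9.54% of abundant genes in either direction. Of claudins, 21 of 27 lay above the knockout, beside 54.1% of all genes. Past the rule were 2 claudins on the higher side (cldnb and cldn5a) and 0 on the lower. The median log2 ratio was 0.36 for claudins and 0.04 for all genes. Cldna and cldn11a lay inside the rule in this ratio, at 0.73 and 0.88, so which claudins are past it depends on the base library.

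Genes that work with both families were read from lists of junction, filament and skin genes. Junction genes were read beside 52.5% of all genes above control in the transgenic library and 3.56% higher past the rule. Of 31 tight junction partners, 24 had a higher transgenic than control level, 2 by enough to pass the rule; the median log2 ratio was 0.29. The pair was marveld1, a relative of occludin, at 3.40, 2.34 and 8.01 FPKM, and the junctional adhesion gene f11r.2 at 0.19, 1.43 and 1.79. The latter was also past the rule in the knockout library. Of 15 compared adherens junction genes 2 were past it, both higher, and the median was 0.13. Cdh1, the cadherin of epithelia, stood at 23.3 FPKM in control, 27.3 in the knockout and 50.4 in the transgenic library, 2.17-fold higher (1.96 to 2.39). Epcam stood at 75.0, 109 and 177 FPKM, 2.36-fold higher (2.16 to 2.57).

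Genes that anchor keratin filaments were read beside all genes, of which 4.82% were past the rule in the transgenic and 1.46% in the knockout library. On the higher side of the transgenic library the share was 3.56%. Of 18 compared desmosome and cytolinker genes 0 were past the rule in either library, with medians of 0.12 in the transgenic and -0.06 in the knockout library. Of 18 genes of hemidesmosomes and basal adhesion, which tie keratins of basal cells to the matrix below, 2 were higher past the rule in the transgenic library (si:ch1073-15f12.3, from 0.48 to 2.09 FPKM, and LOC567928, from 1.01 to 3.45), and the median was 0.12. Col17a1a, a collagen of the hemidesmosome, stood at 51.6, 50.8 and 59.1 FPKM. Other intermediate filament genes, such as those for vimentin and neurofilaments, had a median of 0.00 in the transgenic library and 0.04 in the knockout, with 0 of 19 and 0 of 18 past the rule.

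The next lists were also read beside 52.5% of all genes above control in the transgenic library and 3.56% higher past the rule. Of 21 compared epidermal transcription factors, 3 were past the rule in the transgenic library, each higher, and the median was 0.20. Elf3, an epithelial ETS factor, stood at 5.09 FPKM in control, 5.45 in the knockout and 30.8 in the transgenic library, 6.05-fold higher (4.81 to 7.75). Grhl2b, a grainyhead-like factor that in mammals controls epithelial junction genes, stood at 1.83, 2.43 and 5.08 FPKM, and ehf, another ETS factor of epithelia, at 0.09 in control but 2.32 in the transgenic library. Klf4, a factor of barrier formation in mammals, was the 1 factor past the rule in the knockout library, with 12.4, 4.77 and 7.40 FPKM in control, knockout and transgenic. Of 28 genes compared from the list named cornified layer and surface enzymes, 23 had a higher transgenic than control level. Past the rule were 5, and the median of the list was 0.46. Among the 5 were anxa1a at 126, 199.7 and 308 FPKM and anxa2a, a membrane-binding annexin, at 71.9, 76.2 and 188. The list name does not mean that larval skin has a cornified layer, and the part of other cell types in these levels was not tested. In the knockout library the medians of the 7 lists of junction, filament and skin genes lay between -0.06 and 0.05, with f11r.2 and klf4 as the genes past the rule. The other surface genes past it in the transgenic library were tgm2b, anxa1b and s100a10b, at 2.78-fold, 2.42-fold and 2.17-fold.

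**Figure D5:**
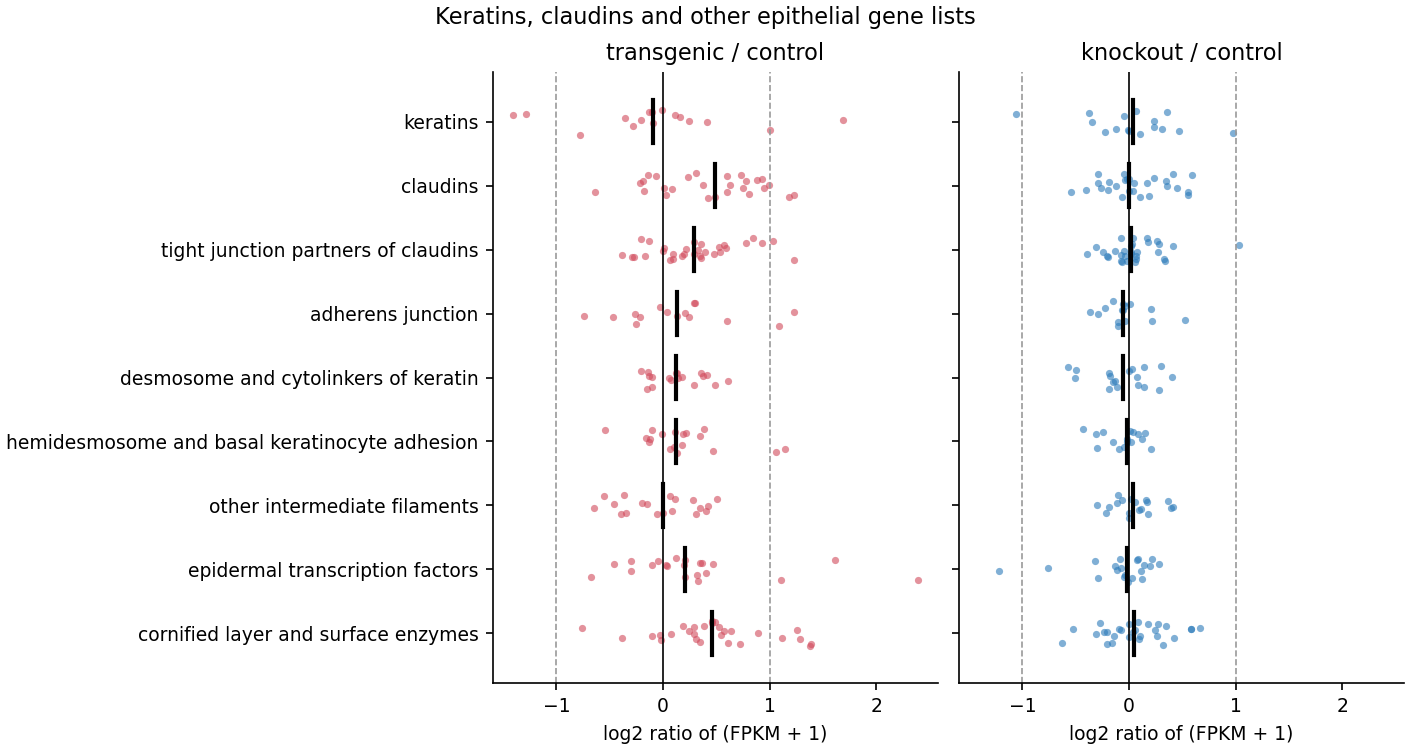
Log2 ratios of (FPKM + 1) to control for keratins, claudins and 7 lists of related epithelial genes, each point 1 gene and each black bar the median, transgenic on the left and knockout on the right, with dashed lines at the 2-fold rule. In the transgenic library the bar stands at -0.10 for keratins, 0.49 for claudins and 0.46 for the list named cornified layer and surface enzymes. In the knockout library each bar lies between -0.06 and 0.05.

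Markers of other skin cells were read beside 52.5% of all genes above control in the transgenic library and 3.56% past the rule on the higher side. Of 17 ionocyte markers 14 lay above control and 1, the calcium channel gene trpv6, was past the rule, and their sums were 255 FPKM in control, 227 in the knockout and 372 in the transgenic library. Of 6 compared mucous cell markers 6 lay above control and 3 were past the rule, with sums of 33.7, 32.4 and 88.2 FPKM over 11 matched genes. Of these, the lectin gene intl2 was listed at 0 in control. Of 23 compared inflammation genes 22 had a higher transgenic than control level, 16 by enough to pass the rule. In the knockout library 17 of 17 were below control and 4 past the rule, beside 44.9% of all genes above control and 0.664% lower past the rule. The part of these cells and genes in the claudin levels was not tested.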

How the data were processed

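RNA of 3 pools of larvae was sequenced, and titles gave the groups. The submitters' processing notes name HISAT, StringTie, DESeq2 and GRCz11, without version or role. The authors deposited FPKM with 2 decimals, per the file headers. The table with every library holds 19699 complete genes, ends in mid-line and holds no knockout value under 0.58 FPKM. The authors' comparison tables, with log2 ratios and p-values per the file headers and an FPKM of 0 written as 0.01, added the genes missing there. Gene length in the deposited tables is in bases. Values of a gene in the tables differed by at most 0.01 FPKM. Those deposited p-values, Poisson-based by the names of the tables, served only to infer depth. For 991 genes listed at 0 in control they gave reads within 0.05 of a whole number in 100% of cases. Depth came from 24 of these with at least 20 reads, whose estimates scattered by 4.69% around the common value, with 130 bases taken off each length. The knockout depth came from its ratio to control, 1.00, which rested on only 15 genes listed at 0 in control. Depth estimates from 9 of those genes scattered by 44.0% and were not used, so knockout depth is less well supported. Reads were then estimated from FPKM.

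Scripts ran in Python 3.11.15 with pandas 2.3.3, NumPy 2.4.6, SciPy 1.17.1 and Matplotlib 3.10.9, and were tested on simulated data. FPKM was used as deposited, and the pseudocount of 1 FPKM understates ratios of genes with low values. Named members are those past the rule, the most abundant, those nearest to the rule, and those of myelin, endothelium, gut and ear; other members were named to account for the families. Of 359 symbols in the lists 322 matched by symbol, 30 by RefSeq symbol and 1 by RefSeq synonym. All 49 members matched a RefSeq gene identifier. Members, lists and rules were chosen with earlier results of these data known. Sequences were not used here, and coordinates served only to give the order of genes in GRCz12tu.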

Additional observations from a re-analysis of the deposited data

How the results depend on the processing

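No paired analysis was possible because each group has 1 library, and for the same reason none could be left out. Counts of members past the 2-fold rule moved by over 1.5 times in these cases. With a pseudocount of 5 FPKM, the transgenic library had 1 keratin higher, 1 lower and 0 claudins higher, and the knockout 0 keratins lower. With a pseudocount of 0.1 FPKM, 4 claudins were higher in the transgenic library, since cldn5b and cldn7b passed as well. Scaling to the median gene left 1 keratin higher in the transgenic library and gave 1 in the knockout (krtt1c19e at 1.01). Over all alternatives run, floors of 0 and 5 FPKM and the knockout as base included, the transgenic median log2 ratio ran from -0.33 to -0.08 for keratins and from 0.36 to 0.63 for claudins. Without krt91, the keratin with the highest mean over the libraries, the keratin sum was 7385 FPKM in control, 9175 in the knockout and 6758 in the transgenic library, and without cldni the claudin sum was 417, 419.5 and 623. Scaling gave keratin sums of 12320.2 in the knockout and 8299 in the transgenic library. Pseudocounts, floors, scaling and leaving out a member change only the calculation, while the knockout as base puts another library in place of control. Why those libraries differ was not tested. Of 456 values of single members under an alternative, 421 kept their side and moved less than their counting interval and 35 did not. No called member changed direction. Depth limits members with few reads, such as cldn10b, whose transgenic level lay between 0.368 and 1.90 times control by counting error alone.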

Other observations

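Under symbols of another kind, 21 further claudin genes and 6 further keratin genes were found through RefSeq symbols or deposited descriptions. Of the claudins, 14 were compared in the transgenic library, with 8 above control, 6 below, 0 past the 2-fold rule and a median log2 ratio of 0.16, beside 21 above and 6 below among the 27 claudins chosen by symbol. Of the keratins, 5 were compared, with 1 above and 4 below. Over all genes, 52.5% lay above control and 4.82% were past the rule. The genes named here were chosen after their values were seen. Cldn23.1 (si:ch211-95j8.2) stood at 13.9 FPKM in control, 9.48 in the knockout and 25.1 in the transgenic library, with the libraries ordered as for cldnb and cldni. Cldn23l (si:dkey-221l4.11) stood at 3.26, 3.83 and 2.4 FPKM, so it was lowest in the transgenic library. Cldn8.2 (zgc:110333) stood at 7.84, 9.35 and 14.6 FPKM. A claudin-3-like gene beside cldna (LOC100333863) stood at 1.15, 3.44 and 1.31 FPKM and was past the 2-fold rule in the knockout library, while its neighbour LOC100333734 stood at 1.09, 1.02 and 0.21.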
